A study of Mus musculus with 12 samples.

Results

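The family of miR-148 and miR-152 comprises the mature miRNAs mmu-miR-148a, mmu-miR-148b and mmu-miR-152 (named without the species prefix below), which arise from 3 loci and share 1 seed, the stretch near the 5′ end by which a miRNA recognises its targets. The members were taken by their names on the array, and they are 3 of the 650 miRNAs it measures, 611 of them from mouse. The family was chosen by measured values of the same arrays: miR-148a by its difference after tunicamycin in wild-type cells and between untreated genotypes, and miR-152 by its difference between genotypes. Those values, and the differences in response that are made of them, are given below as a description, without a p-value. The tests that are given share arrays with the choice and do not stand apart from it.

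Mouse embryonic fibroblasts (MEFs) of C57BL/6 background were profiled on 1-colour Agilent miRNA arrays, and the 12 arrays fall into 6 groups of 2. ATF6bKO cells, which lack the endoplasmic reticulum stress transducer ATF6b, were untreated or had received 2 ug/mL tunicamycin for 12 h or 24 h. ATF6bWT cells, which carry the gene, were untreated or had received the same dose for the same times. Tunicamycin blocks N-linked glycosylation and thereby causes stress in the endoplasmic reticulum. Per the labels, each condition was run in 2 separate experiments. How many embryos or lines stand behind each genotype is not stated in the labels, and the p-values below measure only the spread between these arrays. The array has no probe for the ATF6b message, so the genotypes could not be checked against it.

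A miRNA guides a silencing complex to messages that carry a match to its seed, which lowers their translation and stability. miR-148a and miR-152 are known, mostly from human cells, to repress DNMT1, the enzyme that copies DNA methylation onto newly made strands, and miR-148 has been reported to act on DNMT3B, which sets new methylation. Mir148b lies within Copz1 and Mir152 within Copz2, which encode the zeta subunits of coatomer, the coat of the vesicles that return proteins from the Golgi to the endoplasmic reticulum. Mir148a lies within the span of the predicted gene Gm38821. The nearest protein-coding neighbours include a gene of the NFE2 family of transcription factors at every locus, Nfe2l3 beside Mir148a, Nfe2 beside Mir148b and Nfe2l1 beside Mir152. These gene positions are those of RefSeq on GRCm38.p6.

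The mature sequences are shown because the members differ so little that 1 seed group and 3 separate readings have to be kept in view together. They are RefSeq's on the GRCm38.p6 build, all 3 members matched, and capitals mark the seed, bases 2 to 8.
miR-148a: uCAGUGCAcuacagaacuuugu
miR-148b: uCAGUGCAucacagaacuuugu
miR-152: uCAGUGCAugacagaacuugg
miR-148a lies at chr6:51269829-51269850 on the minus strand and miR-148b at chr15:103285185-103285206 on the plus strand, each 22 bases long. miR-152 lies at chr11:96850439-96850459 on the plus strand and is 21 bases long. Of the 1738 mature miRNAs in the RefSeq table, 3 carry this seed, and they are the family. Counted from 1 at the 5′ end, miR-148b differs from miR-148a by C9U and U10C, leaving 20 of 22 bases the same. miR-152 differs from miR-148a by C9U, U10G and U20G over the 21 shared positions, and from miR-148b by C10G and U20G. The differences lie just after the seed and close to the 3′ end.

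Each member was read by 2 probes with 10 spots each. The probe sequences were not used here, and how far the probes of one member take up another was not tested. The other strand of 1 hairpin, miR-148a*, was on the array with 4 probes of 5 spots and was detected on none of the 12 arrays. The levels below are the sum of a miRNA's 2 probe signals as a percentage of the array's 75th percentile, taken over the 93 miRNAs detected on every array. Since probes differ in brightness, no level of one miRNA is set against another's.

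The arrays differed in brightness. The 75th percentile was 208, 246 and 257 intensity units on the second arrays of knockout 24 h, knockout 12 h and wild-type 24 h, and between 412 and 623 on the other 9. Between 114 and 191 miRNAs were detected per array. Of 10 fibroblast miRNAs such as miR-21 and miR-199a, 8 to 10 were detected on each array. Of 6 blood and 4 neural markers none was detected on any array, while 0 to 5 of 8 epithelial, 0 to 1 of 4 muscle and 0 to 2 of 5 pluripotent markers were. The part these other markers play in the results below was not tested. The untreated arrays share slide 1 and the treated ones slide 2, so that an effect of tunicamycin and one of the slide cannot be told apart. On both slides all knockout arrays lay in row 2 and all wild-type arrays in row 1. An effect of genotype and one of the row thus cannot be told apart either, also within a scan run. Each slide was scanned in 2 runs, told apart by the scan date in the file headers, and a scan run held both genotypes at the same replicate number.

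miR-148a was higher in tunicamycin-treated than in untreated cells of both genotypes, by a little over 3-fold in the knockout. For mmu-miR-148a the untreated knockout arrays read 7.40% and 7.33%, the 12 h arrays 22.7% and 26.4%, and the 24 h arrays 25.1% and 20.6% of the 75th percentile. The untreated wild-type arrays read 3.73% and 3.06%, the 12 h arrays 11.6% and 10.99%, and the 24 h arrays 15.5% and 12.7%. Within each genotype both treated groups lay above the untreated one without overlap, and at every time both knockout arrays lay above both wild-type arrays. How many of all tested miRNAs separate in this way is not given here. The wild-type and the untreated values among these are also those of the choice, so the separation is description only. In order of level the groups ran knockout 12 h at 24.6% ± 2.56, knockout 24 h at 22.8% ± 3.20, wild-type 24 h at 14.1% ± 1.96, wild-type 12 h at 11.3% ± 0.406, untreated knockout at 7.36% ± 0.0444 and untreated wild type at 3.399% ± 0.473 (SD, n = 2 each). The first neighbours in that order, knockout at 12 h and at 24 h, overlapped. In such RNA from whole cultures, fewer cells with a miRNA and less of it per cell cannot be told apart.

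**Figure D1:**
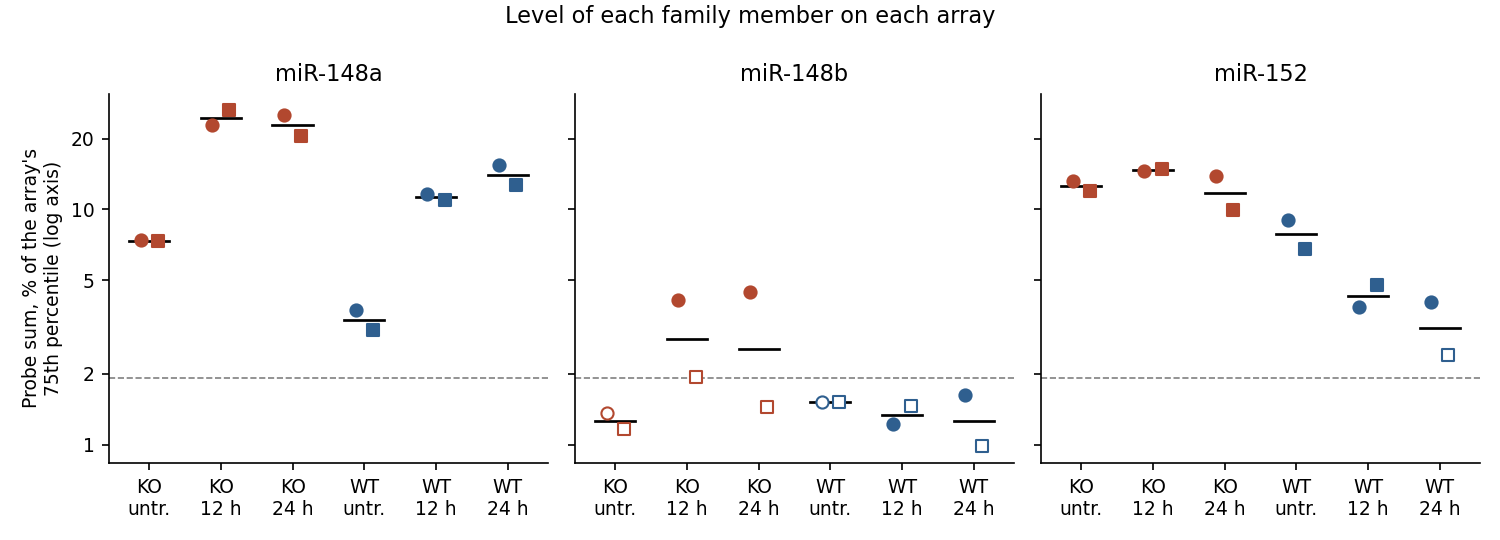
Probe sum of each family member on each of the 12 arrays, as a percentage of that array's 75th percentile on a log axis, with circles for replicate 1, squares for replicate 2, red for knockout, blue for wild type, open symbols where the miRNA was not detected, a bar at the mean of the logs and a dashed line at the floor. miR-148a reads 22.7% and 26.4% in knockout cells at 12 h, against 7.40% and 7.33% in untreated knockout cells, while miR-152 keeps to 9.94% or more in every knockout array and to 9.01% or less in every wild-type one.

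In the knockout, miR-148a rose by 1.73 ± 0.17 on the log2 scale at 12 h (SE), which is 3.33-fold, with an adjusted p of 0.000119 by limma over 176 tested miRNAs. At 24 h it rose by 1.63 ± 0.17, or 3.09-fold, with an adjusted p of 0.000188. Of the 2 members that entered the test, 1 was thus called higher at each time, and over all 176 miRNAs 21.6% were called higher in the knockout at 12 h and 25.6% at 24 h. The median change of all tested miRNAs was 0.25 at 12 h and 0.15 at 24 h, and -0.011 and -0.094 with quantile normalization, so the change of miR-148a lay above the median under both scalings. In wild type, where the values led to its choice, the differences were 1.74 at 12 h and 2.05 at 24 h on the log2 scale. Among all tested miRNAs, 14.2% were called higher in wild type at 12 h and 13.6% at 24 h.

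The unscaled intensities show how much of this rests on the scaling. In the knockout, the summed intensity of miR-148a was 46.1 and 43.9 untreated, 101 and 64.8 at 12 h, and 103 and 42.8 at 24 h. The second 24 h array, the dimmest of all, thus lay below both untreated arrays before scaling and well above them after it. In wild type the intensities were 21.2 and 16.5 untreated, 71.3 and 52.4 at 12 h, and 89.9 and 32.5 at 24 h, and neither treated group overlapped the untreated one. Without the 3 dim arrays, a setting added after seeing the data, the knockout differences were 1.63 at 12 h and 1.77 at 24 h, with adjusted p of 0.00538 and 0.00459 by limma. Each treated knockout group then holds 1 array, which is assumed to vary like the groups that still hold 2. The calls were lost with quantile normalization, where the 12 h difference was 1.35 (adjusted p = 0.0501 by limma) and the 24 h difference 1.29 (adjusted p = 0.0616). They were also lost with the percentile taken over all miRNAs on the array, at 1.48 (adjusted p = 0.176) and 1.36 (adjusted p = 0.253). Normexp background correction kept both calls at a smaller size, 0.96 at each time (adjusted p = 0.0192 at 12 h and 0.0168 at 24 h by limma), and put the wild-type differences at 0.41 and 0.63. Under normexp the median change of all tested miRNAs in the knockout was itself 0.49 at 12 h and 0.52 at 24 h. In wild type that median was -0.0064 at 12 h and 0.14 at 24 h.

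The knockout read higher in miR-148a than wild type after treatment, by a margin that depended on the scaling. At 12 h the difference was 1.12 ± 0.17 on the log2 scale, or 2.17-fold (adjusted p = 0.00154 by limma), and at 24 h 0.70 ± 0.17, or 1.62-fold (adjusted p = 0.0131). The treated wild-type arrays in these tests also entered the choice of miR-148a, so the p-values do not stand apart from it. Of all tested miRNAs, 29.5% were called higher in the knockout at 12 h and 27.3% at 24 h. In untreated cells, where the values were used for the choice, the difference was 1.12, or 0.10 with normexp, and 1.7% of all tested miRNAs were called higher there. By scan run, the difference of knockout minus wild type was 0.99 and 1.26 in untreated cells, 0.98 and 1.26 at 12 h, and 0.70 at 24 h in both runs. Both calls were lost under other settings. Quantile normalization left 0.80 at 12 h (adjusted p = 0.185 by limma) and 0.24 at 24 h (adjusted p = 0.794). The percentile over all miRNAs left 0.70 (adjusted p = 0.542 by limma) and 0.32 (adjusted p = 0.952), and normexp 0.65 (adjusted p = 0.0791) and 0.43 (adjusted p = 0.288). The 24 h call was also lost without the first knockout 24 h array (0.56, adjusted p = 0.0726), without the second wild-type 24 h array (0.56, adjusted p = 0.0885) and without the 3 dim arrays (0.70, adjusted p = 0.0605).

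The response of miR-148a to tunicamycin differed between knockout and wild type by -0.0029 ± 0.24 on the log2 scale at 12 h, with a 95% interval from -0.55 to 0.54, and by -0.42 ± 0.24 at 24 h, with an interval from -0.97 to 0.12. Both contain values used for the choice and carry no p-value. The 12 h interval allows a difference of about 0.54 log2 units either way, so it does not show that the genotypes responded alike.

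miR-152 was lower after tunicamycin in wild type, and no change of it was called in the knockout. For mmu-miR-152 the knockout arrays read 13.2% and 11.9% untreated, 14.6% and 14.8% at 12 h, and 13.8% and 9.94% at 24 h, whereas the wild-type arrays read 9.01% and 6.81% untreated, 3.83% and 4.77% at 12 h, and 4.05% and 2.40% at 24 h. After scaling, every knockout array lay above every wild-type array. How many of all tested miRNAs separate in this way is not given here. Before scaling the genotypes overlapped. Knockout intensities of miR-152 were 82.5 and 71.3 untreated, 65.2 and 36.4 at 12 h, and 57.0 and 20.7 at 24 h. Wild-type intensities were 51.2 and 36.7 untreated, 23.6 and 22.7 at 12 h, and 23.6 and 6.17 at 24 h. Every treated knockout array thus lay below both untreated ones before scaling. On the second wild-type 24 h array miR-152 was not detected, and it was detected on the other 11. In order of level the groups ran knockout 12 h at 14.7% ± 0.130, untreated knockout at 12.6% ± 0.937, knockout 24 h at 11.9% ± 2.75, untreated wild type at 7.91% ± 1.56, wild-type 12 h at 4.30% ± 0.665 and wild-type 24 h at 3.23% ± 1.17 (SD, n = 2 each). Untreated and 24 h knockout arrays overlapped, and so did 12 h and 24 h wild-type arrays.

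All the arrays in the tests of miR-152 also entered the genotype differences by which it was chosen. In wild type, miR-152 fell by 0.87 on the log2 scale at 12 h (SE 0.28, adjusted p = 0.0416 by limma) and by 1.33 at 24 h (SE 0.28, adjusted p = 0.00639). Of all tested miRNAs, 23.9% were called lower in wild type at 12 h and 29.5% at 24 h, so miR-152 was 1 of many there. In the knockout the differences were 0.23 at 12 h, with an interval from -0.43 to 0.88 (adjusted p = 0.583 by limma), and -0.10 at 24 h, with an interval from -0.75 to 0.55 (adjusted p = 0.803). Under quantile normalization the knockout difference at 12 h turned to -0.40, and with the percentile over all miRNAs to -0.023. The 12 h call in wild type lay close to the threshold: it was lost with 8 of the 12 arrays left out in turn, with adjusted p between 0.0212 and 0.205 by limma over the 12 refits. Of those 8, 4 left out a knockout array and kept the value at -0.87, and the other 4 left out an array of the 2 groups compared, giving -0.67 to -1.08. The 24 h call was lost without the first untreated wild-type array (-1.13, adjusted p = 0.0509) and without the 3 dim arrays, which leaves 1 array in that group (-0.95, adjusted p = 0.0601). Quantile normalization ended the 12 h call (-1.09, adjusted p = 0.0608 by limma). The percentile over all miRNAs ended both, at -0.86 (adjusted p = 0.406) and -1.36 (adjusted p = 0.202), and normexp left -0.17 at 12 h and -0.0041 at 24 h (adjusted p = 0.937 and 0.988 by limma).

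The difference between the responses of miR-152 was 1.103 ± 0.40 at 12 h, knockout minus wild type, and 1.23 ± 0.40 at 24 h on the log2 scale (SE). Each is the treated difference between genotypes minus the untreated one, the values by which miR-152 was chosen, so it carries no p-value. Among all tested miRNAs, 22.2% at 12 h and 19.9% at 24 h were called with a higher response in the knockout. Their median response difference was 0.37 at 12 h and 0.44 at 24 h. Quantile normalization left 0.69 and 0.97 for miR-152, beside medians of 0.18 and 0.20. Normexp left 0.62 and 0.42 for miR-152, close to its medians of 0.47 and 0.39. Between genotypes, where the values were used for the choice, miR-152 stood 0.68 higher in the knockout untreated, 1.78 at 12 h and 1.91 at 24 h on the log2 scale. By run these were 0.55 and 0.81 untreated, 1.93 and 1.63 at 12 h, and 1.77 and 2.05 at 24 h. With normexp the genotype differences of miR-152 were 0.15 untreated, 0.77 at 12 h and 0.57 at 24 h.

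**Figure D2:**
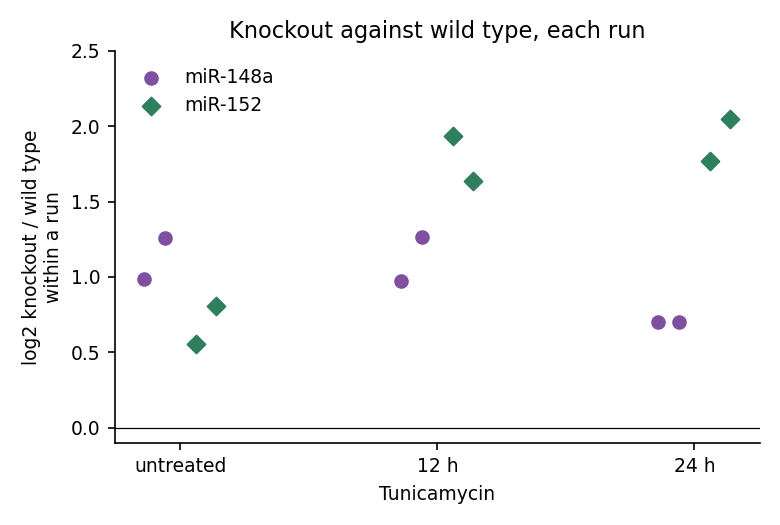
Difference of knockout minus wild type on the log2 scale for miR-148a (purple circles) and miR-152 (green diamonds) within each of the 2 scan runs, left and right of each pair, by treatment along the x axis. miR-148a keeps between 0.70 and 1.26 at all times, while miR-152 reads 0.55 and 0.81 untreated and 1.63 to 2.05 after tunicamycin.

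miR-148b was near the limit of the array and did not enter the test, since it was never detected on both arrays of a group. It was detected on 4 arrays, the first replicate of each treated group. For mmu-miR-148b the knockout arrays read 1.36% and 1.16% untreated, 4.11% and 1.94% at 12 h, and 4.45% and 1.45% at 24 h. The wild-type arrays read 1.52% in both untreated cells, 1.23% and 1.46% at 12 h, and 1.63% and 0.982% at 24 h. The floor set on all values is 1.91%, and miR-148b was below it on 9 of 12 arrays, so that among these 9 the values have no order. The readings clearly above it are those of the first knockout arrays at 12 h and 24 h, and the sums on the second arrays of the same groups did not repeat them. Nearly all of its signal there came from the probe A_54_P1382, with 17.1 and 17.7 intensity units on those 2 arrays, while A_54_P1381 read 1.25 and 0.654 there. These were the highest readings of A_54_P1382 on the 12 arrays, and miR-148a had its highest summed intensities, 101 and 103, on the same 2 arrays. Whether A_54_P1382 takes up miR-148a was not tested. As a percentage of the 75th percentile, A_54_P1382 read 3.83% and 3.30% in the knockout at 12 h, and 4.29% and 2.70% at 24 h. Elsewhere it read at most 1.93%. On the second of these arrays, which are dim, its total was only 2.04 and 1.39 times its error. A_54_P1381 read -3.36 and -2.61 intensity units there, which lowered the sums.

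The 2 probes of miR-148a and of miR-152 gave the same direction for the changes of miR-148a and for those of miR-152 in wild type, taken alone, with the floor halved for single probes and without a test. For miR-148a the changes in the knockout were 2.08 and 1.57 at 12 h and 1.82 and 1.54 at 24 h on the log2 scale, and in wild type 1.86 and 1.66 at 12 h and 2.15 and 1.98 at 24 h. For miR-152 in wild type they were -0.87 and -0.87 at 12 h and -1.19 and -1.05 at 24 h. In the knockout at 24 h the probes of miR-152 parted, at -0.38 and 0.00065.

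The scanner software also gives 1 total gene signal per miRNA, and the deposited log2 values are the log2 of that total. For the family it does not always follow the probes. Where both probe totals exceeded 3 times their error, the total equalled their sum, as on 8 arrays for miR-148a and 8 for miR-152. Where only 1 did, the total was far above the sum. For miR-148a the total on the first untreated knockout array was 415 against a sum of 30.6, a ratio of 13.6, and on the second, where both probes passed, it was 29.7 with the sum at 29.7. On the untreated wild-type arrays the totals were 274 and 182 against sums of 13.5 and 10.95, and on the second wild-type 24 h array the total was 99.9 against 21.6. The 3 largest totals of miR-148a thus stood on 3 of the 4 untreated arrays, where its scaled probe sum was lowest.

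For miR-152 the totals ran above the sum on the second knockout 24 h array (80.0 against 13.7) and on both wild-type 12 h arrays (135 against 16.3 and 100.0 against 15.1). On the second wild-type 24 h array neither probe passed 3 errors and miR-152 was called undetected. On the 4 arrays that detected miR-148b, 1 of its probes passed, and the totals were 6.46 to 10.6 times the sum. The same held across the array: in 1179 of 1179 detected pairs of a mouse or viral miRNA and an array in which every probe passed, total and sum agreed within 2%. There were 728 detected pairs with only some probes past 3 errors. By the ratio of total to sum, the total was over 2% above the sum in 627 and within 2% in 7, with a median ratio of 4.68. The remaining pairs had a lower ratio, and any pair with a negative sum counts among them. The limit of 3 errors was chosen after seeing the data.

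**Figure D3:**
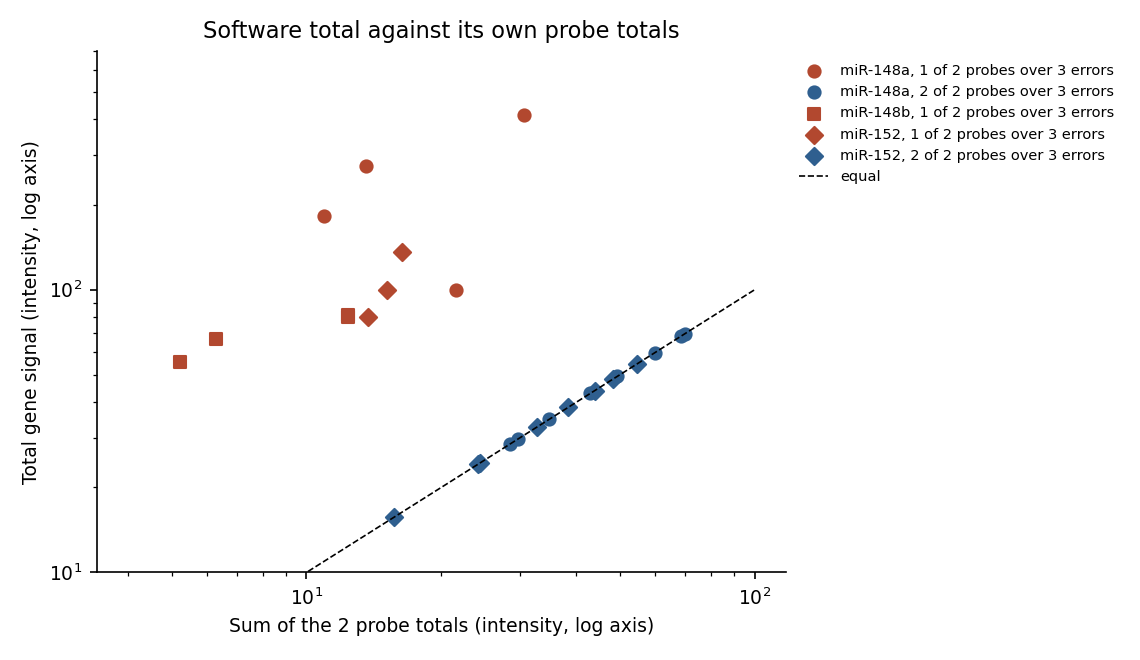
Software's total gene signal against the sum of its own 2 probe totals, both in intensity units on log axes, 1 point per array that detected the miRNA, coloured by whether 1 (red) or both (blue) probe totals exceeded 3 times their error. The blue points lie on the dashed line of equality and every red point lies above it, up to 415 against 30.6 for miR-148a.

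With the totals in place of the probe sums, signs changed. The change of miR-148a with tunicamycin became -0.23 at 12 h and -0.53 at 24 h in the knockout and -2.60 and -1.32 in wild type, and untreated knockout minus wild type became -1.24. For miR-152 in wild type the 12 h change became 1.87, while the 24 h change was -1.63. The deposited log2 values gave -2.43 and -1.53 for miR-148a in wild type and 2.04 for miR-152 in wild type at 12 h. Adding the software's probe totals instead, a setting added after seeing the data, gave 1.73 and 1.63 for miR-148a in the knockout, 1.78 and 2.06 in wild type, and -0.83 and -1.32 for miR-152 in wild type. The sign of these changes in wild type at 12 h thus depends, for both members, on whether the probe signals are added or the software's total is read. The deposited values carry the total.

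**Figure D4:**
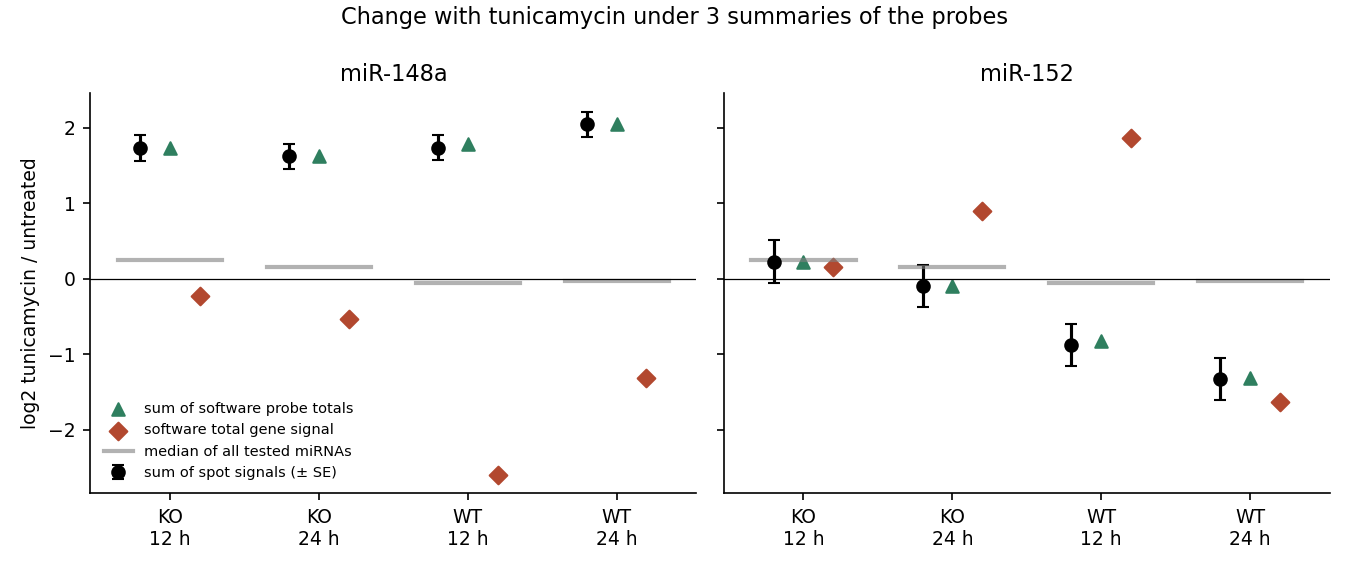
Log2 change with tunicamycin of miR-148a and miR-152 in each genotype and time under 3 summaries: the sum of spot signals (black, with SE), the sum of the software's probe totals (green triangles) and the software's total gene signal (red diamonds), with grey bars at the median of all 176 tested miRNAs by the first. Black and green lie together, while the red diamonds of miR-148a lie below 0 in all 4 comparisons, at -2.60 in wild type at 12 h.

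Across the 12 arrays the members did not share 1 pattern. Pearson's r between log2 levels was 0.17 for miR-148a and miR-152, 0.49 for miR-148a and miR-148b, and 0.45 for miR-148b and miR-152, given as a description because the arrays share runs, slides and group. The miRNAs most like miR-148a were miR-26b (r = 0.94), miR-130b (0.91) and miR-331-3p (0.86). Their own log2 differences in the knockout at 12 h were 0.92 for miR-26b, 1.12 for miR-130b and 0.55 for miR-331-3p. With quantile normalization they were 0.33, 0.73 and -0.018 in the same order. These are given without a p-value, because the likeness was taken over the same arrays. Most like miR-152 were miR-337-3p (0.98), miR-143 (0.97) and miR-27b (0.96). In wild type at 12 h the log2 differences were -0.42 for miR-337-3p, -1.89 for miR-143 and -1.37 for miR-27b, likewise without a p-value, and -0.035, -1.09 and -0.58 with normexp. In the knockout at 12 h they were 0.10, 0.15 and -0.014. For miR-148b, with 9 values at the floor, the closest were miR-500 (0.92), miR-23a (0.69) and miR-320 (0.67).

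Other miRNAs reported to repress DNA methyltransferases were listed for comparison, namely miR-29a, miR-29b, miR-29c, miR-143, miR-185, miR-342-3p, miR-101a and miR-101b. All 8 were on the array and 5 entered the test. In the knockout at 12 h, 3 of the 5 rose and 1 fell, with a list median of 0.54 against 0.25 for all tested miRNAs, among which 21.6% were called higher and 3.98% lower. The 3 that rose, miR-29a, miR-29b and miR-29c, belong to 1 family. At 24 h 2 rose and 1 fell, against 25.6% higher and 5.11% lower of all. In wild type none of the 5 rose by limma, also at an unadjusted p under 0.05, and 1 fell at each time, with list medians of 0.0054 at 12 h and -0.024 at 24 h. The shares of all tested miRNAs there were 14.2% higher and 23.9% lower at 12 h, and 13.6% higher and 29.5% lower at 24 h. Their medians were -0.053 at 12 h and -0.027 at 24 h. The number of rises in the knockout depended on the scaling. With quantile normalization none of the 5 was called higher at either time by limma (1 at 12 h and 0 at 24 h at an unadjusted p under 0.05), and the list median was 0.082 at 12 h and -0.16 at 24 h. None was called with the percentile over all miRNAs (0 and 0 at an unadjusted p under 0.05 by limma), while normexp called 1 at 12 h and 0 at 24 h (3 and 2 at an unadjusted p under 0.05). miR-29b, whose family is known to repress the methyltransferases that set new methylation, rose by 0.98 ± 0.22 in the knockout at 12 h (adjusted p = 0.0118 by limma), with 0.43 ± 0.22 in wild type (adjusted p = 0.152). The knockout value had an adjusted p of 0.106 with quantile normalization, 0.616 with the percentile over all miRNAs and 0.0456 with normexp, all by limma. Knockout minus wild type, miR-29b read -0.92 ± 0.22 untreated (adjusted p = 0.0345 by limma) and -0.36 ± 0.22 at 12 h (adjusted p = 0.249). Its rise in the knockout thus began below the wild-type reading. miR-342-3p, which has been reported to act on DNMT1 in human cells, had -1.02 ± 0.18 in the knockout at 12 h (adjusted p = 0.00299 by limma). It had -1.37 with quantile normalization (adjusted p = 0.0190 by limma), -1.28 with the percentile over all miRNAs (adjusted p = 0.279) and 0.14 with normexp (adjusted p = 0.634). miR-143, which is also among the fibroblast markers above, fell by 1.89 in wild type at 12 h (SE 0.36, adjusted p = 0.00492 by limma). It was one of the 3 miRNAs most like miR-152, over the same arrays. Its difference was -2.04 with quantile normalization (adjusted p = 0.0142 by limma), -1.88 with the percentile over all miRNAs (adjusted p = 0.0953) and -1.09 with normexp (adjusted p = 0.00931).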

How the data were processed

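The deposited scanner tables hold spot intensity on a linear scale. The submitters' processing notes name Agilent Feature Extraction 10.7.1.1. Per the labels, 100 ng of total RNA was labelled with Cy3. The authors' deposited log2 values are, within 1.18e-06, those of the total gene signal on a log2 scale, and the table is empty where a miRNA was undetected and is not scaled between arrays, with column medians of 5.75 to 6.87.

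With 715 control spots left out, 13000 spots remained. The background-subtracted intensity was averaged over their unflagged spots for each of 1857 probes. Probes were summed per miRNA, divided by the array's 75th percentile over 93 miRNAs detected on all arrays, floored at 0.0191 (log2 -5.71, the median over arrays of the lowest detected value) and logged. The 6 groups were fitted together with limma 3.58.1 in R 4.3.3 (6 residual and 1.65 prior degrees of freedom) over the 176 mouse miRNAs that both arrays of some group detected, with Benjamini-Hochberg adjustment and a threshold of 0.05. The number of arrays limits the precision.

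The members and lists were chosen with earlier results of these data known. Named miRNAs are the members, the other strand of their hairpins, up to 4 of the methyltransferase list and, per member, the 3 tested miRNAs with the highest correlation over the arrays.

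Same-numbered arrays deviated together within a slide (r of 0.48 untreated, 0.76 to 0.91 treated) and not between slides (-0.38 to -0.05), so the number marks the scan run within a slide and pairs no treated with an untreated array. The fit without a block takes these deviations as independent.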

Additional observations from a re-analysis of the deposited data

Results flagged for a closer look

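At 12 h of tunicamycin, the scaled readings of miR-152 lay on opposite sides of the untreated ones in the genotypes, but no knockout change was called. Both knockout arrays, at 14.6% and 14.8% of the 75th percentile, lay above both untreated knockout arrays, at 13.2% and 11.9%. Before scaling they lay below them, with intensities of 65.2 and 36.4 against 82.5 and 71.3. Both wild-type arrays, at 3.83% and 4.77%, lay below both untreated wild-type arrays, at 9.01% and 6.81%. The knockout difference was 0.23 on the log2 scale, with an interval from -0.43 to 0.88 (adjusted p = 0.583 by limma). A rise in the knockout is thus not shown. How many of all tested miRNAs part in this way is not given here. The difference between the responses, knockout minus wild type, was 1.103 on the log2 scale, and 0.62 with normexp. This difference was not tested, since it is made of the values by which miR-152 was chosen. The knockout part of it turned to -0.40 with quantile normalization and to -0.023 with the percentile over all miRNAs.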

How the results depend on the processing

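The values below are log2 differences, and the cause of each shift was not tested unless the setting itself shows it. Quantile normalization ended the call of miR-148a with tunicamycin in the knockout (1.35 at 12 h, 1.29 at 24 h), of miR-152 in wild type at 12 h (-1.09) and of miR-148a in knockout minus wild type (0.80 at 12 h, 0.24 at 24 h), and turned miR-152 in the knockout at 12 h (-0.40). The percentile over all miRNAs ended the same calls (1.48, 1.36, -0.86, 0.70 and 0.32) and that of miR-152 in wild type at 24 h (-1.36), and turned miR-152 in the knockout at 12 h (-0.023). Normexp, run on median in place of mean spot signals and with 9 spots left out on 1 array, ended the calls of miR-152 in wild type (-0.17 at 12 h, -0.0041 at 24 h) and of miR-148a in knockout minus wild type (0.65 at 12 h, 0.43 at 24 h). It kept the calls of miR-148a in the knockout at 0.96 at each time, beside medians of all tested miRNAs of 0.49 and 0.52. It put miR-148a at 0.41 and 0.63 in wild type and at 0.10 in untreated knockout minus wild type. It turned miR-152 in the knockout at 24 h (0.42) and the response difference of miR-148a (0.55 at 12 h, 0.33 at 24 h). For miR-152 it put the response difference at 0.62 at 12 h and 0.42 at 24 h. Knockout minus wild type of miR-152 became 0.15 untreated, 0.77 at 12 h and 0.57 at 24 h with normexp. The offset of 50 it adds exceeds many of the members' probe signals.

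The software's total gene signal gave -0.23 and -0.53 for miR-148a in the knockout at 12 h and 24 h, -2.60 and -1.32 in wild type, and -1.24, 1.14 and -0.46 for knockout minus wild type untreated, at 12 h and at 24 h. Its response differences for miR-148a were 2.38 and 0.79. For miR-152 it gave 0.90 in the knockout at 24 h, 1.87 and -1.63 in wild type, -1.09 for knockout minus wild type at 12 h and -1.72 for the response difference at 12 h. The deposited log2 values, unscaled, gave -1.03 and -1.32 for miR-148a in the knockout, -2.43 and -1.53 in wild type, -1.01, 0.39 and -0.80 between genotypes, and 1.40 and 0.21 for the response differences. For miR-152 they gave -0.66 and 0.11 in the knockout, 2.04 and -0.85 in wild type, -1.84 between genotypes at 12 h and -2.70 for the response difference at 12 h. The mean of log2 probe signals put the response difference of miR-148a at 12 h at 0.067. The sum of the software's probe totals left miR-152 in wild type at 12 h uncalled (-0.83), and so did testing all mouse miRNAs (-0.87). Without the 3 dim arrays, miR-152 in the knockout at 24 h was 0.14, and its wild-type change at 24 h (-0.95) and miR-148a in knockout minus wild type at 24 h (0.70) were not called.

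With an array left out in turn, miR-148a in the knockout stayed called at 1.63 to 1.84 at 12 h and 1.48 to 1.77 at 24 h, and in knockout minus wild type ran from 1.01 to 1.23 at 12 h and 0.56 to 0.84 at 24 h. Its response difference at 12 h ran from -0.15 to 0.14. miR-152 ran from -1.08 to -0.67 in wild type at 12 h, -1.70 to -0.95 at 24 h, 0.15 to 0.30 in the knockout at 12 h and -0.34 to 0.14 at 24 h, and its response difference from 0.90 to 1.31 at 12 h and 0.85 to 1.61 at 24 h. A group left with 1 array is assumed to vary like the others. With the replicate block, and likewise with the scan run as a block, no call on a member changed. miR-148a in the knockout stayed at 1.73 and 1.63 with the replicate block and was 1.71 and 1.61 with the scan run. Of the tested member differences, 146 alternatives kept direction and side of the threshold, 34 ended a call and 16 turned the sign. Many of the 146 could not move the difference itself, only its p. Such were the refits without an array outside the compared groups and those with another choice of tested miRNAs. The differences of miR-152 in the knockout, also counted, had no call to lose. The tally is thus no measure of how firm the calls are.

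The number of miRNAs called, 45, 54, 67 and 76 for tunicamycin (knockout 12 h and 24 h, wild type 12 h and 24 h), 20, 67 and 61 for knockout minus wild type (untreated, 12 h, 24 h) and 43 and 36 for the response differences (12 h, 24 h), moved by over 1.5 times in many settings. In that order it was 26, 22, 47, 47, 11, 37, 34, 17 and 12 with quantile normalization, 11, 7, 2, 2, 0, 11, 7, 4 and 4 with the percentile over all miRNAs, 19, 20, 20, 18, 1, 12, 7, 5 and 3 with normexp, and 14, 10, 26, 25, 3, 20, 11, 8 and 5 with the software's total. The deposited values gave 0 calls by limma in all 9, with 7, 14, 28, 16, 5, 15, 8, 8 and 5 miRNAs at an unadjusted p under 0.05, and the 0 under the percentile over all miRNAs stood beside 15 at that p. The replicate block gave 58, 73, 89, 96, 37, 78, 83, 56 and 59, the scan run as a block 51, 60, 86, 87, 33, 91, 84, 61 and 60, the fit on all mouse miRNAs 40, 46, 44, 54, 12, 48, 51, 24 and 19, and that on miRNAs detected on all arrays 29, 36, 43, 48, 18, 38, 38, 25 and 20. Without the 3 dim arrays there were 31, 33, 60, 47, 18, 51, 38, 20 and 13. With 1 array left out the counts lay between 7 and 79 over the 9 comparisons, and the lowest was that of untreated knockout minus wild type without the first untreated wild-type array.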
